A study of Mus musculus with 12 samples.

Results

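The genes described here are 10 transcripts that mark the connective tissue and contractile cells of the lung, followed in RNA of sorted lung lymphatic endothelial cells (LECs). The 6 fibroblast genes were Dcn, Mgp, Inmt, Npnt, Tcf21 and Eln, and the 4 mural genes, which mark smooth muscle cells and pericytes, were Acta2, Myh11, Cspg4 and Tagln. They were taken by name, as the identifiers that carry these symbols in the GENCODE M21 annotation, and make up 10 of the 52636 gene identifiers counted. The rule used their names, not their levels, but the genes were chosen with earlier results of these data known.

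LECs were sorted from lungs of Prox1-EGFP mice, a reporter line in which the regulatory sequence of the lymphatic transcription factor Prox1 drives EGFP. The sorted cells carried EGFP and the endothelial protein CD31 and lacked EPCAM and blood lineage markers. All 12 libraries came from this line, so the room air controls carried the reporter too. The labels give 8wk and Aged as an age, and the study's methods give lengths of exposure, which are used here. The acute groups, labelled 8wk, held 2 libraries (F and M, for female and male) after 8 weeks of cigarette smoke (acute CS) and 2 (F and M) from age-matched mice in room air (acute RA). The chronic groups, labelled Aged, held 5 libraries (F, M1, M2, M3 and M4) after at least 24 weeks of smoke (chronic CS) and 3 (F, M1 and M2) in room air (chronic RA). Exposure began at 6 weeks of age and ran on 5 days a week. Each acute library pooled cells of 2 to 5 mice, and the chronic libraries were not pooled, so the spread between acute libraries is a spread between pools.

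Fibroblasts make and maintain the collagen and elastic fibre network on which the alveoli hang, and elastin synthesis is carried out by fibroblasts and related cells that share features with smooth muscle. Mural cells wrap vessels and airways, and their contractile proteins are transcribed largely under serum response factor, which binds a DNA element called the CArG box. Large collecting lymphatics in many organs carry a smooth muscle coat, while lymphatic capillaries mostly lack one and the lymphatics of the healthy lung have little. Both cell classes lack CD31, the protein on which the sort relied.

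Of the fibroblast genes, Dcn (ENSMUSG00000019929, chr10:97479609-97518143, plus strand) encodes decorin, a proteoglycan that binds collagen fibrils, and Mgp (ENSMUSG00000030218, chr6:136872435-136875823, minus strand) encodes matrix Gla protein, an inhibitor of calcification. Inmt (ENSMUSG00000003477, chr6:55170626-55175043, minus strand) encodes indolethylamine N-methyltransferase, an enzyme abundant in mouse lung fibroblasts. Npnt (ENSMUSG00000040998, chr3:132881745-132950291, minus strand) encodes nephronectin, a basement membrane ligand of integrins, Tcf21 (ENSMUSG00000045680, chr10:22817281-22820174, minus strand) a basic helix-loop-helix transcription factor of lung mesenchyme, and Eln (ENSMUSG00000029675, chr5:134702593-134747323, minus strand) elastin. Of the mural genes, Acta2 (ENSMUSG00000035783, chr19:34241090-34255590, minus strand) encodes smooth muscle alpha-actin and Myh11 (ENSMUSG00000018830, chr16:14194535-14291372, minus strand) smooth muscle myosin heavy chain. Cspg4 (ENSMUSG00000032911, chr9:56865033-56899870, plus strand) encodes the NG2 proteoglycan of pericytes, and Tagln (ENSMUSG00000032085, chr9:45929619-45936058, minus strand) encodes transgelin, an actin-binding protein of smooth muscle. Positions are on GRCm38, span the whole gene and are those of protein-coding genes.

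Upstream sequence in RefSeq (GRCm38.p6) was at hand for 5 of the 10 genes, and it is shown for Acta2 and Inmt, the mural and the fibroblast gene whose searched windows held a match. Over the 250 bases before the RefSeq start, both strands were searched for a CArG-like box (CC, then 6 bases of which at least 5 are A or T, then GG) and for TATAAA, motifs that do not overlap in these windows. The capitals mark the matches, and each sequence runs 5′ to 3′ on the minus strand.
Acta2, chr19:34255438-34255467: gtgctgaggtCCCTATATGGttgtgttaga
Acta2, chr19:34255388-34255417: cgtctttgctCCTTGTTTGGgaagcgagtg
Inmt, chr6:55175044-55175240: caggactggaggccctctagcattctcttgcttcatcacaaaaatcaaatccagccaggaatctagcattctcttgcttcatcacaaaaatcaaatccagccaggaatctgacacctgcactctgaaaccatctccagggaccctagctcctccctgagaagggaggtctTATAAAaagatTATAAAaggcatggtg
The boxes of Acta2 lie 84 to 75 and 34 to 25 bases before its RefSeq start, and the first exon of the GENCODE model reaches over both. The TATAAA matches of Inmt lie 80 to 75 and 69 to 64 bases before its RefSeq start and upstream of every GENCODE exon of the gene. A CArG-like box occurs in 8.59% of 32851 RefSeq windows of this length, and TATAAA in 12.4%. Cspg4, Tcf21 and Npnt held neither in this window.

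Chronic CS F was the shallowest library, with 18821438 counts, and acute RA F the deepest, with 56998590. A floor of 3 counts, which covers counting error only, lay between 0.0507 and 0.158 CPM (gene counts relative to library size, with sizes adjusted by TMM, the trimmed mean of M-values). All 10 genes passed the filter on low counts, which left 21440 genes. The lymphatic label held in every library, with Prox1 at 1042 CPM or more, but other cells were represented as well. The reads of Sftpc, a marker of alveolar type 2 epithelium, lay between 128 and 4139 CPM. In bulk RNA, fewer cells of a type and less RNA per cell cannot be told apart.

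In room air, the fibroblast genes lay well above most of the mural genes. Scaled per length of exon, as FPKM (CPM divided by exon length in kilobases), the order in acute RA was Npnt (109 ± 0.155 FPKM, SD, n = 2), Inmt (100.1 ± 16.2), Mgp (23.2 ± 3.52), Eln (22.4 ± 2.25), Acta2 (9.15 ± 6.77), Dcn (5.72 ± 0.486), Tcf21 (4.44 ± 0.951), Tagln (0.453 ± 0.0997), Myh11 (0.324 ± 0.218) and Cspg4 (0.214 ± 0.0129). Within this order Npnt and Inmt had overlapping libraries, as did Mgp and Eln, Acta2 and Dcn, Tagln and Myh11, and Myh11 and Cspg4. The other neighbours were apart in both libraries. In chronic RA, the order of FPKM was Npnt (49.6 ± 4.46, SD, n = 3), Inmt (42.1 ± 8.44), Eln (23.4 ± 0.844), Dcn (10.7 ± 2.01), Mgp (9.24 ± 1.42), Acta2 (3.60 ± 1.54), Tcf21 (1.55 ± 0.411), Myh11 (0.393 ± 0.0496), Tagln (0.184 ± 0.0956) and Cspg4 (0.153 ± 0.190). Npnt and Inmt, Dcn and Mgp, and Tagln and Cspg4 overlapped there. Of the 4 mural genes described here, Tagln, Myh11 and Cspg4 were each under 1 FPKM in every room air library, and Acta2 was the exception.

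After smoke the order of FPKM differed at its top. In acute CS, Inmt (157 ± 7.51 FPKM, SD, n = 2), Mgp (129 ± 103), Acta2 (56.1 ± 11.1), Npnt (49.3 ± 11.5) and Dcn (29.6 ± 28.3) led, each overlapping the next, and Dcn in turn overlapped Eln (23.9 ± 1.68). Below these came Tcf21 (6.79 ± 0.188), Myh11 (4.82 ± 0.156), Tagln (0.911 ± 0.101) and Cspg4 (0.885 ± 0.668). In chronic CS, Inmt stood first at 126 ± 40.8 FPKM (SD, n = 5) with no library overlapping Npnt (43.5 ± 12.7). Mgp (33.0 ± 15.9), Eln (23.2 ± 6.32) and Acta2 (22.4 ± 7.34) followed with overlapping libraries, then Dcn (10.1 ± 2.19), Tcf21 (6.14 ± 1.91), Myh11 (2.49 ± 0.670), Cspg4 (0.479 ± 0.496) and Tagln (0.458 ± 0.164). Acta2 was the mural gene with the highest FPKM in all 4 groups.

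The first question was how these transcripts differed between smoke and room air after acute exposure. Dcn, Acta2 and Myh11 rose, which is 3 of the 10 genes called higher by edgeR's quasi-likelihood F-test at an adjusted p under 0.05, against 2.75% of all genes tested. None was called lower. For 8 of the 10 genes both acute CS libraries lay above both acute RA libraries, against 27.4% of all genes, and for Npnt both lay below, against 22.5% of all genes. The median log2 fold change was 0.63 for the fibroblast genes and 2.33 for the mural genes, beside 0.04 for all genes tested. DESeq2 called 5 genes, with Mgp as a further gene higher and Npnt lower, and it called 8.03% of all genes higher and 2.88% lower. The count of 3 was 0 in a fit of the acute groups alone, where 144 of all genes were called against 745 in the main fit. The calls also depended on single libraries, as given below for each gene.

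Dcn read 35.4 and 31.4 CPM in acute RA F and M, and 55.7 and 289 CPM in acute CS F and M. The male smoke library was far above the rest, while the female one exceeded both controls by less. Dcn rose by a log2 fold change of 2.37 ± 0.56 (SE), or 5.17-fold, with adjusted p = 0.0450 in edgeR. Most of this change came with 1 library, since without acute CS M the log2 fold change was 0.74 with adjusted p = 0.291. The call was also lost without acute RA F (adjusted p = 0.235) or acute RA M (adjusted p = 0.301) and with library size in place of TMM (adjusted p = 0.0526).

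Mgp followed the same libraries, with 30.5 and 24.6 CPM in acute RA F and M against 66.6 and 239 CPM in acute CS F and M. Its groups did not overlap, and the male smoke library was again the highest of all 12. The log2 fold change of Mgp was 2.47 ± 0.61, and with adjusted p = 0.0507 in edgeR it missed the limit narrowly. It passed in DESeq2 (adjusted p = 4.28e-04) and, in edgeR, without acute CS F, where the log2 fold change was 3.11. Without acute CS M it was 1.27.

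Inmt and Tcf21 showed smaller differences with a closer pair of smoke libraries. Inmt read 178 and 142 CPM in acute RA F and M, and 243 and 259.7 CPM in acute CS F and M. Tcf21 read 12.01 and 8.85 CPM in acute RA F and M, and 15.6 and 16.3 CPM in acute CS F and M. In neither did the groups overlap, but neither passed, with log2 fold changes of 0.65 ± 0.36 (adjusted p = 0.440 in edgeR) for Inmt and 0.61 ± 0.41 (adjusted p = 0.547) for Tcf21.

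Npnt went the other way. The gene stood at 549 and 548 CPM in acute RA F and M, the highest values among all 12 libraries, and at 207 and 289 CPM in acute CS F and M. Its log2 fold change was -1.15 ± 0.30, or 0.451-fold, with adjusted p = 0.0684 in edgeR and 0.00500 in DESeq2. Scaled to the lymphatic transcripts Prox1, Flt4 and Pdpn, the log2 difference of Npnt was -0.21. This scaling brought the median log2 fold change of all genes from 0.04 to 1.02. Eln, at 169 and 194 CPM in acute RA F and M and 184 and 203 CPM in acute CS F and M, overlapped between the groups, with a log2 fold change of 0.09 ± 0.24 and adjusted p = 0.936 in edgeR. Under the lymphatic scaling the log2 fold change of Eln was 1.06, near that median of all genes. There its adjusted p was 0.00807 in edgeR, with 35% of all genes called higher. Its sign turned without acute RA F, to -0.005. Elastin mRNA varied little, with 11 of 12 libraries between 149.6 and 203 CPM.

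**Figure D1:**
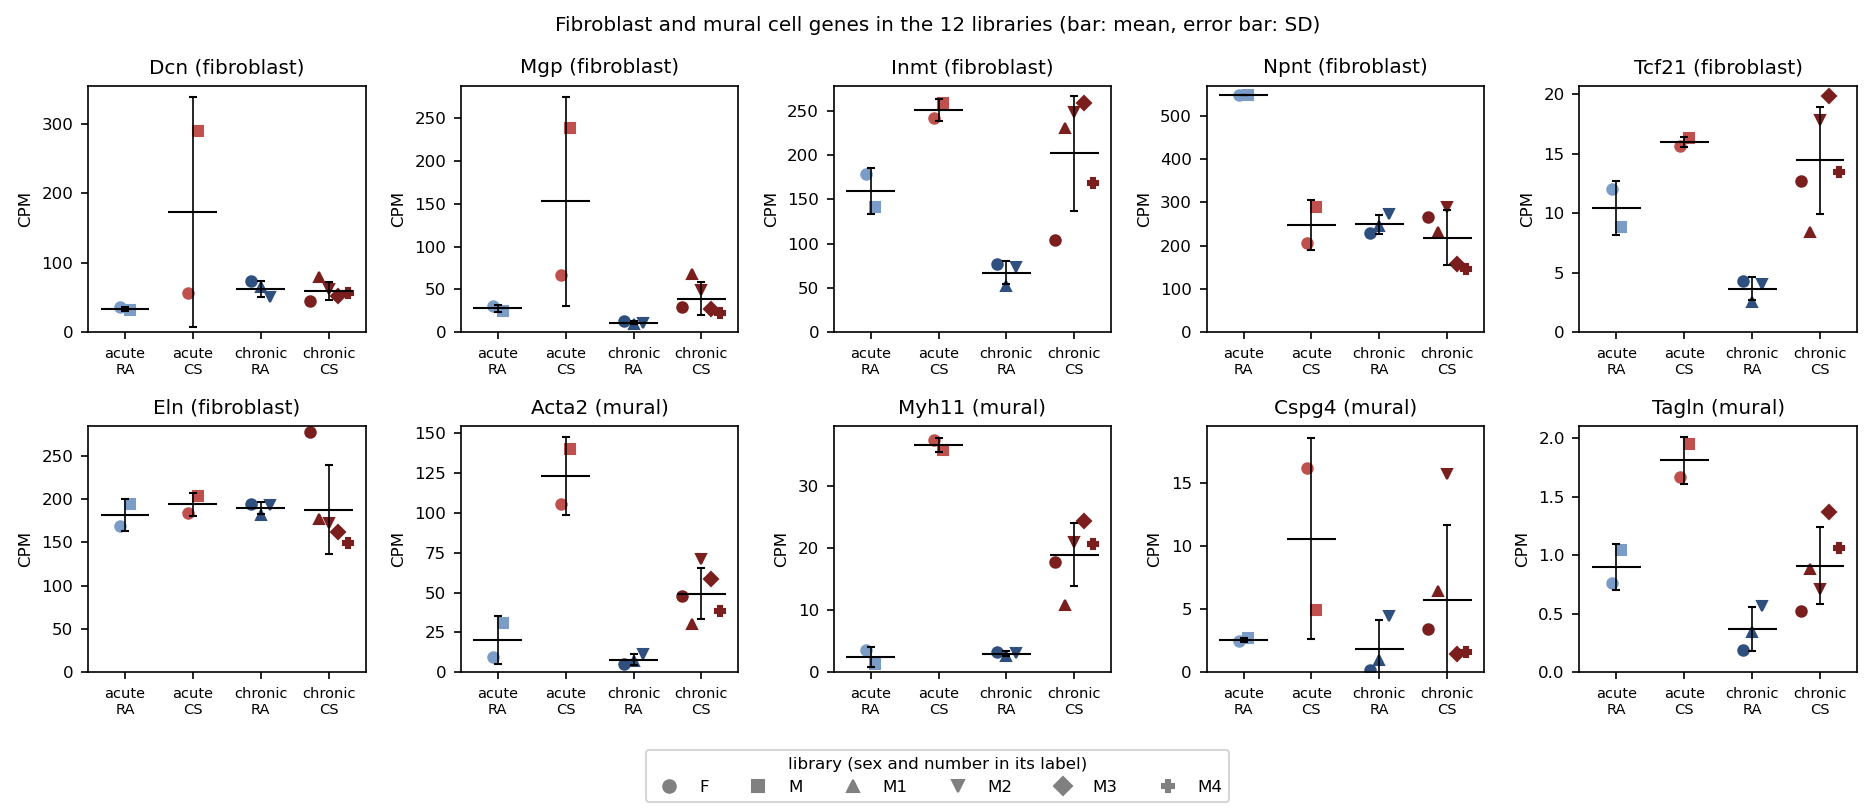
CPM of each of the 10 genes (y axis, linear from 0) in the 12 libraries, grouped along the x axis by time and exposure (RA, room air; CS, cigarette smoke); symbols name the library, bars the group mean and error bars, cut at 0, the SD over 2, 2, 3 and 5 libraries. Dcn and Mgp are highest in acute CS M, Myh11 and Acta2 are higher in every smoke library than in any room air library of the same time, and Eln overlaps between all groups.

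Myh11 and Acta2 had the largest log2 fold changes of the 10 genes after acute smoke. Myh11 read 3.63 and 1.29 CPM in acute RA F and M, and 37.5 and 35.8 CPM in acute CS F and M. The smoke libraries lay close together and far above both controls. Myh11 rose by 3.89 ± 0.50 on the log2 scale, or 14.9-fold, with adjusted p = 0.00400 in edgeR. The log2 fold change of Myh11 was 4.83 without acute RA F, 3.28 without acute RA M, 3.86 without acute CS F and 3.93 without acute CS M. Each of these fits left a single library in a group, so only the sizes are given. Acta2 read 9.60 and 30.6 CPM in acute RA F and M, and 106 and 140.3 CPM in acute CS F and M. The control libraries differed from each other by more than the smoke libraries did in relative terms, and no control reached a smoke library. Acta2 rose by 2.62 ± 0.57, or 6.12-fold, with adjusted p = 0.0286 in edgeR. Without any 1 of the 4 acute libraries its log2 fold change was 2.01 to 3.63 and its adjusted p rose above the limit, to 0.186 without acute RA F, 0.0775 without acute RA M, 0.0900 without acute CS F and 0.0791 without acute CS M.

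Cspg4, the pericyte gene, was at 2.45 and 2.67 CPM in acute RA F and M and 16.2 and 4.92 CPM in acute CS F and M. Here the female smoke library was the high one, the reverse of Dcn and Mgp. Its log2 fold change was 2.04 ± 1.37 (adjusted p = 0.555 in edgeR), and 0.94 without acute CS F. Tagln stayed low throughout, at 0.760 and 1.04 CPM in acute RA F and M and 1.67 and 1.95 CPM in acute CS F and M. These groups did not overlap, the log2 fold change was 1.005 ± 0.72, and the adjusted p was 0.592 in edgeR. Of the 50-base stretches in Tagln transcripts, 58.3% also lie in Pcsk7 or Gm48529, genes on the opposite strand that overlap it, and since the counting is not stated to use strand, their reads cannot be told apart. With 2 libraries against 2, the smallest p of an exact two-sided permutation test is 0.333.

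After chronic exposure no gene of the 10 was called by edgeR, nor was any of the 21440 genes tested (0% called). At an unadjusted p under 0.05, 6 of the 10 were higher, namely Mgp, Inmt and Tcf21 of the fibroblast genes and Acta2, Myh11 and Tagln of the mural genes, against 5.57% of all genes, and none was lower. In 5 of the 10, all 5 chronic CS libraries lay above all 3 chronic RA libraries, against 3.92% of all genes. The median log2 fold change was 0.79 for the fibroblast genes and 2.14 for the mural genes, beside 0.01 for all genes. DESeq2 called Mgp, Inmt, Tcf21, Acta2 and Myh11 higher, and 1.99% of all genes. Without chronic CS F edgeR called 1 of the 10, Inmt, and 4 of all genes.

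The fibroblast genes split into those that were higher in every smoke library and those that overlapped. Tcf21 read 4.32, 2.53 and 4.05 CPM in chronic RA F, M1 and M2, and 12.7, 8.41, 17.8, 19.8 and 13.4 CPM in chronic CS F, M1, M2, M3 and M4. The lowest smoke library, M1, stood above the highest control. Its log2 fold change was 1.99 ± 0.32, or 3.97-fold, with adjusted p = 0.145 in edgeR and 1.95e-07 in DESeq2, and an exact two-sided permutation test of the 8 libraries gave p = 0.0357, the smallest this design allows.

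Inmt read 76.6, 51.8 and 73.5 CPM in chronic RA F, M1 and M2, and 104, 230.5, 249, 259 and 169 CPM in chronic CS F, M1, M2, M3 and M4. Chronic CS F was the lowest of the smoke libraries, yet above all controls. The log2 fold change of Inmt was 1.59 ± 0.28 with adjusted p = 0.172 in edgeR, and without chronic CS F it passed the limit (1.75, adjusted p = 0.0175). Mgp read 12.9, 9.85 and 10.1 CPM in chronic RA F, M1 and M2, and 29.7, 67.4, 49.8, 26.4 and 22.7 CPM in chronic CS F, M1, M2, M3 and M4. All 5 smoke libraries exceeded the controls, with M1 and M2 the highest. For Mgp the log2 fold change was 1.84 ± 0.46, with adjusted p = 0.261 in edgeR and 0.00183 in DESeq2. It was 2.16 with chronic CS F, M1 and M2 alone and 1.17 with M3 and M4 alone, the libraries of lower and of higher depth in this group.

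Dcn, Npnt and Eln overlapped between the chronic groups. Dcn read 73.1, 64.3 and 49.9 CPM in chronic RA F, M1 and M2, and 45.1, 78.9, 62.2, 52.0 and 56.3 CPM in chronic CS F, M1, M2, M3 and M4. Its log2 fold change of -0.08 ± 0.39 (adjusted p = 0.960 in edgeR) had no settled sign, turning to 0.005 with library size in place of TMM and to 0.14 when scaled to the lymphatic transcripts. Npnt read 229, 245 and 273 CPM in chronic RA F, M1 and M2, and 266, 232, 289, 158 and 146 CPM in chronic CS F, M1, M2, M3 and M4. M3 and M4 lay below every control, F and M1 within their range and M2 above it, and the log2 fold change of -0.19 ± 0.22 (adjusted p = 0.782) turned to 0.035 under the lymphatic scaling. Eln read 194, 182 and 193 CPM in chronic RA F, M1 and M2, and 277, 177, 173, 162 and 149.6 CPM in chronic CS F, M1, M2, M3 and M4. Chronic CS F was high and the other smoke libraries lay below the lowest control, and the log2 fold change of -0.02 ± 0.18 (adjusted p = 0.986) turned to 0.07 with library size.

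Among the mural genes, Acta2 read 4.95, 7.17 and 11.6 CPM in chronic RA F, M1 and M2, and 47.7, 30.2, 71.0, 58.5 and 38.5 CPM in chronic CS F, M1, M2, M3 and M4. The lowest smoke library was above the highest control. The log2 fold change of Acta2 was 2.64 ± 0.44, or 6.22-fold, with adjusted p = 0.150 in edgeR and 4.23e-08 in DESeq2. Myh11 read 3.29, 2.56 and 3.10 CPM in chronic RA F, M1 and M2, and 17.7, 10.9, 20.9, 24.4 and 20.7 CPM in chronic CS F, M1, M2, M3 and M4. Its groups were well apart, with a log2 fold change of 2.67 ± 0.37 (6.34-fold) and adjusted p = 0.145 in edgeR. Leaving out each of the 8 chronic libraries in turn gave 2.57 to 2.81, and it was 2.47 with chronic CS F, M1 and M2 only and 2.92 with M3 and M4 only. The exact permutation p was 0.0357 for each of Acta2, Myh11, Inmt and Mgp, again the smallest possible.

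Tagln read 0.188, 0.346 and 0.566 CPM in chronic RA F, M1 and M2, and 0.525, 0.880, 0.707, 1.37 and 1.06 CPM in chronic CS F, M1, M2, M3 and M4. Here chronic CS F lay below chronic RA M2, so the groups overlapped, and the log2 fold change was 1.31 ± 0.56 (adjusted p = 0.436 in edgeR). Cspg4 read 0.157, 0.922 and 4.41 CPM in chronic RA F, M1 and M2, and 3.41, 6.43, 15.7, 1.42 and 1.63 CPM in chronic CS F, M1, M2, M3 and M4. The groups overlapped widely, with M1 and M2 above the controls and F, M3 and M4 inside their range. Its log2 fold change was 1.64 ± 1.04 (adjusted p = 0.581 in edgeR), 0.81 without chronic CS M2, 3.39 without chronic RA M2 and -0.27 with M3 and M4 as the only smoke libraries.

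**Figure D2:**
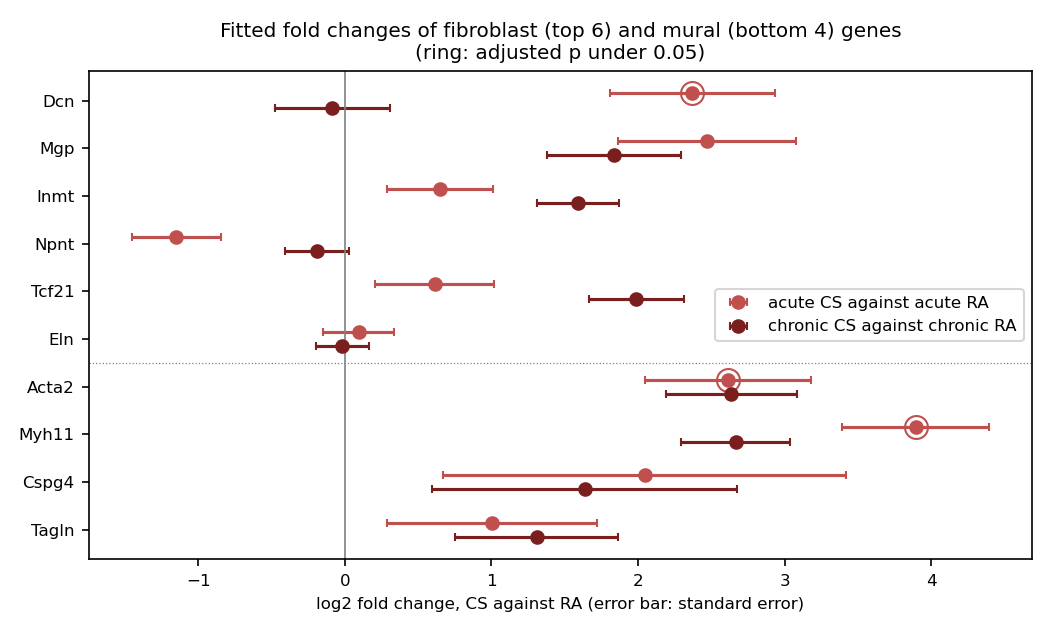
Fitted log2 fold changes of smoke against room air (x axis) for the 6 fibroblast genes above the dotted line and the 4 mural genes below it, acute in light red and chronic in dark red; error bars are standard errors from edgeR and rings mark an adjusted p under 0.05. All 4 mural genes lie to the right of 0 at both times, while Npnt lies to the left and Eln at 0.

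The difference between fibroblast and mural level was then taken within each library, as the mean log2 CPM of the 6 fibroblast genes minus that of the 4 mural genes. The fibroblast genes exceeded the mural genes by 4.73 and 4.37 in acute RA F and M, and by 2.31 and 3.42 in acute CS F and M. The gap was 5.69, 4.59 and 3.82 in chronic RA F, M1 and M2, and 3.47, 3.70, 3.02, 3.35 and 3.35 in chronic CS F, M1, M2, M3 and M4. In every smoke library it was narrower than in any room air library of its time point. The group means were 4.55 ± 0.26 (SD, n = 2) in acute RA, 2.86 ± 0.79 (n = 2) in acute CS, 4.70 ± 0.94 (n = 3) in chronic RA and 3.38 ± 0.24 (n = 5) in chronic CS. Since the genes were chosen with earlier results of these data known, no test is given. The mural mean went from 1.64 ± 0.13 to 4.05 ± 0.20 log2 CPM in the acute groups and from 0.77 ± 0.87 to 2.90 ± 0.37 in the chronic groups. The fibroblast mean went from 6.19 ± 0.12 to 6.91 ± 0.59, and from 5.47 ± 0.16 to 6.27 ± 0.23.

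**Figure D3:**
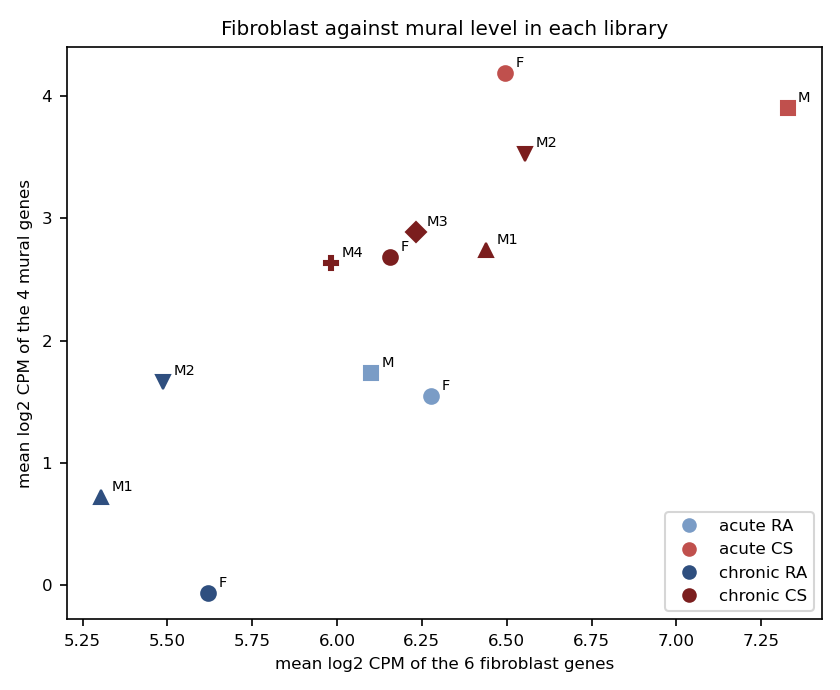
Mean log2 CPM of the 6 fibroblast genes (x axis) against that of the 4 mural genes (y axis), 1 point per library with its sex and number beside it, coloured by group. The 7 smoke libraries lie above the 5 room air libraries on the mural axis, where the lowest smoke library is at 2.64 and the highest room air library at 1.73, while on the fibroblast axis they overlap across time points but not within one, where every smoke library lies to the right of every room air library. The summed CPM of the 6 genes did overlap, at 771 in acute CS F against 949 and 974 in acute RA and at 557 in chronic CS M4 against 555 to 604.5 in chronic RA.

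Between the room air groups, chronic RA against acute RA, no gene of the 10 was called by edgeR (0% of all genes), and DESeq2 called Inmt, Npnt and Tcf21 as lower, with 0.33% of all genes called lower. At an unadjusted p under 0.05, 5 of the 10 were lower in chronic RA, against 7.01% of all genes in either direction. They were the fibroblast genes Mgp, Inmt, Npnt and Tcf21 and the mural gene Acta2. The log2 differences were -1.52 ± 0.37 for Tcf21, -1.33 ± 0.52 for Mgp, -1.25 ± 0.32 for Inmt and -1.14 ± 0.27 for Npnt, with adjusted p-values of 0.405, 0.684, 0.479 and 0.401 in edgeR. In each of these 4 genes and in Tagln, 5 of the 10, all chronic RA libraries lay below both acute RA libraries, against 17% of all genes. Acta2, at -1.34 ± 0.49 (adjusted p = 0.627), overlapped, as did Myh11 at 0.28 ± 0.42, and Dcn was higher at 0.90 ± 0.51 (adjusted p = 0.744). These controls are the ones used in the smoke comparisons, and they differ in pooling, which cannot be told apart from age.

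The acute effect minus the chronic effect was called for none of the 10 genes by edgeR, against 0.452% of all genes, and for Dcn alone by DESeq2 (log2 difference 2.42, adjusted p = 0.00881), which called 3.88% of all genes above 0. At an unadjusted p under 0.05 it was above 0 for Dcn and Myh11 and below 0 for Npnt and Tcf21, against 11.9% of all genes in either direction. Its log2 size was 2.45 ± 0.67 for Dcn (adjusted p = 0.155 in edgeR), -1.38 ± 0.51 for Tcf21 (adjusted p = 0.306), 1.23 ± 0.56 for Myh11 (adjusted p = 0.420) and -0.96 ± 0.37 for Npnt (adjusted p = 0.336). For Acta2 the 2 effects were close, with a difference of -0.02 ± 0.66. By edgeR with its standard scaling, the time points were not shown to differ for any of these genes with all 12 libraries. Scaled to Prox1, Flt4 and Pdpn, edgeR called Dcn (3.04, adjusted p = 0.0117) and Myh11 (1.99, adjusted p = 0.0413), with 16.3% of all genes called above 0. Without acute CS F, Dcn was called (log2 difference 3.20, adjusted p = 0.0318).

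Further fibroblast genes, 30 in number and all tested, covered collagens, receptors and secreted matrix proteins. After acute smoke 6 of the 30 rose and 1 fell, against 590 called higher and 155 called lower of the 21440 genes tested. The median log2 fold change was 1.65 beside 0.04 for all genes. Col3a1, a fibrillar collagen, read 48.2 and 49.7 CPM in acute RA F and M and 196 and 287 CPM in acute CS F and M, and rose by 2.30 ± 0.38 (adjusted p = 0.00947 in edgeR). Col1a1 rose by 2.23 ± 0.46 (adjusted p = 0.0237) and Lpl, the lipoprotein lipase also made by lipofibroblasts and macrophages, by 3.44 ± 0.61 (adjusted p = 0.0124). Wnt2, a signal made by alveolar fibroblasts, fell by 1.82 ± 0.32 (adjusted p = 0.0122), from 73.6 and 85.4 CPM in acute RA F and M to 19.8 and 25.4 CPM in acute CS F and M. Scaled to the lymphatic transcripts its log2 fold change was -0.86 (adjusted p = 0.0395). Pdgfra, the receptor that marks fibroblasts, stood at 5.91 and 16.1 CPM in acute RA F and M and 28.9 and 23.5 CPM in acute CS F and M, with a log2 fold change of 1.25 ± 0.50 (adjusted p = 0.243). The count of 6 depended on the libraries, being 0 without acute RA F or acute RA M and 2 without acute CS F or acute CS M.

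After chronic smoke none of the 30 was called by edgeR and 12 by DESeq2, which called 1.99% of all genes higher. At an unadjusted p under 0.05, 21 of the 30 were higher, against 5.57% of all genes, and none lower. The median log2 fold change was 1.43 beside 0.01 for all genes. Col6a2, a chain of collagen VI, ranged from 1.70 to 5.23 CPM in chronic RA and from 9.82 to 29.9 CPM in chronic CS, with a log2 fold change of 2.53 ± 0.47 (adjusted p = 0.189 in edgeR). Mfap4, a microfibril protein of elastic fibres, ranged from 12.2 to 16.8 and from 25.9 to 79.0 CPM, with 1.93 ± 0.31 (adjusted p = 0.145). Neither gene overlapped between the groups.

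The 13 genes of elastic fibre assembly, 3 of which are also in the list above, moved in both directions beside the level of Eln. After acute smoke 2 rose and 1 fell, against 590 and 155 of the 21440 genes tested, with a median log2 fold change of -0.23. Mfap2, a microfibril protein, rose by 2.99 ± 0.45 (adjusted p = 0.00790 in edgeR) and Mfap5 by 2.63 ± 0.53 (adjusted p = 0.0222), while Loxl2, a lysyl oxidase that crosslinks matrix, fell by 1.73 ± 0.36 (adjusted p = 0.0248), a call that was lost under the lymphatic scaling (-0.71, adjusted p = 0.222). After chronic smoke none of the 13 was called, and the median was 0.01. At an unadjusted p under 0.05, 5 were higher and 3 lower, against 1194 and 1147 of the 21440 genes tested. Efemp2, which is required for elastin assembly, had -0.57 ± 0.15 (adjusted p = 0.288) with all chronic CS libraries below all chronic RA libraries. The summed CPM of the 13 genes reached 5202 to 6055 in acute RA and 7024 to 8243 in chronic RA. It was 3097 and 4552 in acute CS F and M, below both controls, and 5076 to 7652 in chronic CS with a median of 6825 against 7772 in chronic RA, while the mean log2 CPM, which weights the genes equally, was higher in chronic CS. In controls, this list, unlike the 4 mural genes, was abundant in the sorted cells.

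Of 30 further mural genes, 8 rose and 2 fell after acute smoke, against 590 and 155 of the 21440 genes tested. Their median log2 fold change was 2.35. Pdgfrb, the receptor that marks pericytes, read 4.88 and 4.33 CPM in acute RA F and M and 77.7 and 41.2 CPM in acute CS F and M, and rose by 3.69 ± 0.59 (adjusted p = 0.00867 in edgeR). Mcam, which endothelial cells also express, rose by 3.26 ± 0.31 (adjusted p = 0.00166), and Tpm2, a tropomyosin of smooth muscle, by 2.88 ± 0.51 (adjusted p = 0.0124). Smtn, smoothelin, was abundant in controls at 832 and 955 CPM in acute RA F and M, read 295 and 437 CPM in acute CS F and M, and fell by 1.29 ± 0.19 (adjusted p = 0.00747). Under the lymphatic scaling Smtn was at -0.35 (adjusted p = 0.141). The summed CPM of the 30 genes, which weights abundant genes such as Smtn more, did not rise. It was 1798 and 1913 in acute RA F and M and 1626 and 1668 in acute CS F and M. Rgs5, a pericyte regulator of G protein signalling, had no count in acute RA F, 0.908 CPM in acute RA M, and 7.99 and 16.5 CPM in acute CS F and M (adjusted p = 0.328). The count of 8 was 1 without acute RA F, 0 without acute RA M, 3 without acute CS F and 4 without acute CS M.

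After chronic smoke none of these 30 was called by edgeR and 7 by DESeq2, which called 1.99% of all genes higher. At an unadjusted p under 0.05, 10 were higher, against 5.57% of all genes, and none lower. The median log2 fold change was 0.76. Tpm2 had 1.88 ± 0.38 (adjusted p = 0.201 in edgeR) and Pdgfrb 1.41 ± 0.41 (adjusted p = 0.317), and in neither did the groups overlap. Rgs5 was between 0 and 1.49 CPM in all chronic libraries. The summed CPM of the 30 genes overlapped, at 1786 to 1897 in chronic RA and 1701 to 2031 in chronic CS. The median of the 4 mural genes, 2.14, was thus above that of the 30 others, a description of lists of unequal size.

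Markers of other cell types moved with these genes. After acute smoke, 7 of 8 leukocyte markers and 9 of 14 blood endothelium markers rose, against 2.75% of all genes. The summed CPM of the leukocyte list was 113 to 118 in acute RA and 1527 to 2058 in acute CS. For the blood endothelium list it was 5464 to 6507 and 10170 to 12400, and for the 10 alveolar macrophage markers, of which 2 rose and 1 fell, 767 to 848 and 2208 to 2583. The lymphatic list went the other way, with 2 of 8 genes called lower and a summed CPM of 13630 to 15420 in acute RA and 5952 to 9159 in acute CS. Of the 8 genes, 7 had a log2 fold change below 0. The remaining gene was at 0.67, with an unadjusted p under 0.05 in edgeR and both acute CS libraries above both acute RA libraries. Scaled to Prox1, Flt4 and Pdpn, Lyve1 had the highest log2 fold change of the list, 1.59 (adjusted p = 0.00106 in edgeR, where 35% of all genes were called higher). Prox1 fell by 1.03 ± 0.16 on the log2 scale (adjusted p = 0.00797 in edgeR) and Flt4, the receptor VEGFR3, by 1.10 ± 0.22 (adjusted p = 0.0204). Ptprc, the leukocyte protein CD45, rose by 3.48 ± 0.60 (adjusted p = 0.0121). Of the endothelial genes, Pecam1, which encodes CD31, had 0.74 ± 0.20 (adjusted p = 0.0727) and Cdh5 rose by 0.94 ± 0.21 (adjusted p = 0.0356). The part of these cells in the acute differences of the 10 genes was not tested.

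Alveolar epithelium differed between the acute smoke libraries, with a summed CPM of the 10 markers of 231 in acute CS M, 6683 in acute CS F and 785 to 1102 in acute RA. The library with the higher Dcn and Mgp, acute CS M, was the one with the lower epithelial sum. Epcam, against which the cells were gated, was at 16.1 CPM in acute CS F and 2.30 CPM in acute CS M and at 0 in the lowest chronic CS library. Myh11 was alike in acute CS F and M. In the chronic groups the epithelial sum was 258 to 492.6 in RA and 964 to 4833 in CS. At an unadjusted p under 0.05, 9 of 10 markers were higher, against 5.57% of all genes, and none was called. There, leukocyte markers summed to 103 to 178 and 109.7 to 353 CPM in RA and CS, which overlapped. Blood endothelium markers summed to 6310 to 6528 and 5552 to 6170 CPM, lower in every CS library, although 12 of the 14 genes had a log2 fold change above 0. The lymphatic list was at 18670 to 21390 and 13730 to 20060 CPM. Mesothelial markers, 5 of 6 tested, gave 0.346 to 23.3 and 6.14 to 51.7 CPM in the chronic groups and 6.30 to 28.0 and 82.0 to 126 CPM in the acute groups, with none called, and Msln was at 0 in acute RA M. The 5 erythroid markers gave 37.8 to 69.9, 10.6 to 697, 196 to 432 and 9.69 to 349 CPM in acute RA, acute CS, chronic RA and chronic CS, again with none called. The part of these cells in the chronic differences was not tested either.

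**Figure D4:**
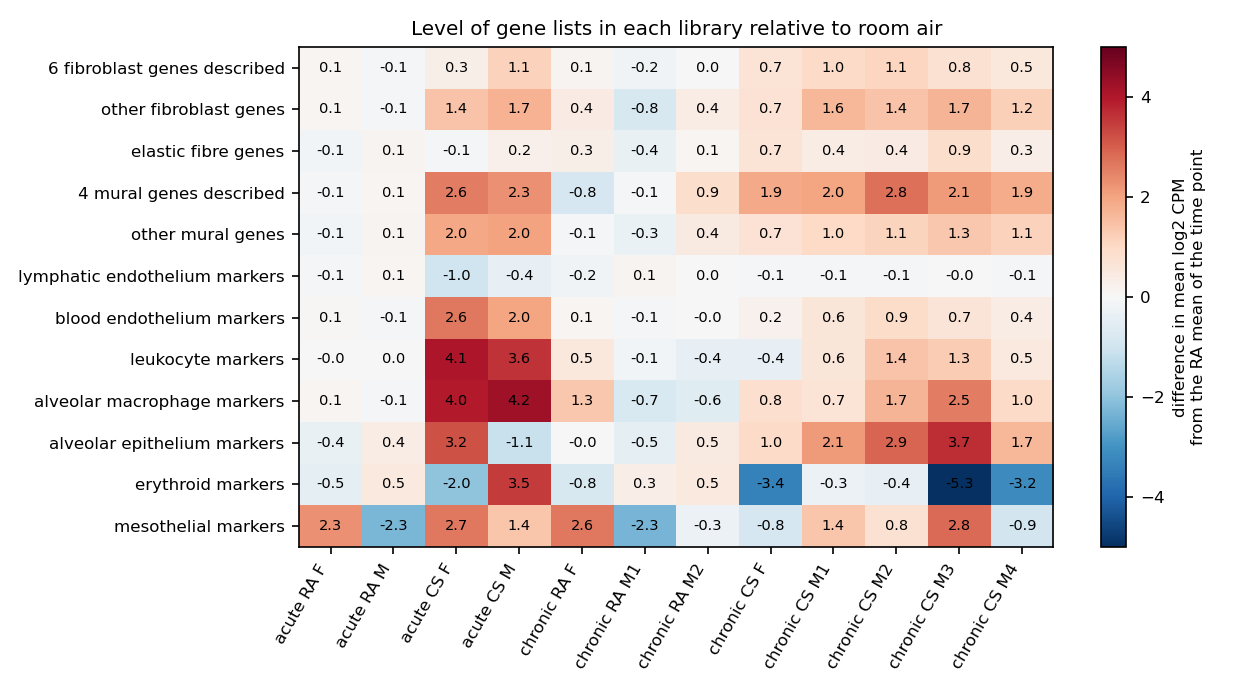
Mean log2 CPM of 12 gene lists (rows) in the 12 libraries (columns) minus the mean of the room air libraries of the same time point; red is higher and blue lower, and each cell prints the difference. In acute CS the fibroblast, mural, blood endothelium, leukocyte, macrophage and mesothelial lists are above the room air mean in both libraries and the lymphatic list is below it, and in chronic CS the fibroblast, elastic fibre, mural, blood endothelium, macrophage and alveolar epithelium lists are above it in all 5 libraries.

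Genes related to the mural genes were read to see whether reads could be shared. Of the 50-base stretches of Acta2 transcripts 0.326% also occur in other actin transcripts, and no 100-base stretch does. For Myh11 the share with Myh9 and Myh10 was 0.34% at 50 bases and 0 at 100 bases, and Dcn, Mgp, Inmt, Npnt, Tcf21 and Cspg4 shared none at either length. Of Eln, 2.07% of 100-base stretches lie in Gm30003 on the opposite strand. Actg2, the enteric smooth muscle actin, read 0.203 and 2.54 CPM in acute RA F and M and 9.70 and 18.4 CPM in acute CS F and M, and had log2 fold changes of 3.36 ± 1.43 and 3.48 ± 1.15 (adjusted p = 0.279 and 0.350 in edgeR). Acta1 of skeletal muscle was at 1.44 CPM or less in all libraries. Tagln2, the transgelin of non-muscle cells, rose after acute smoke by 0.96 ± 0.12 (adjusted p = 0.00400), at 279 and 298 CPM in acute RA F and M and 584 and 535 CPM in acute CS F and M.

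Across the 12 libraries the genes did not form a single block. Pearson correlations of log2 CPM had a median of 0.66 over the 6 pairs of mural genes, all above 0, and of 0.07 over the 15 pairs of fibroblast genes, 10 of them above 0. Across the 24 pairs of a fibroblast with a mural gene the median was 0.50. With group means removed the medians were 0.07, 0.10 and -0.02, with single pairs between -0.68 and 0.85. The libraries share a sort and differ in depth and exposure, and these values are a description. Inmt (0.92), Mgp (0.89) and Tcf21 (0.83) followed the mean of the 30 further fibroblast genes, Dcn did so less (0.46), and Npnt (-0.14) and Eln (-0.13) did not. The mural genes followed that mean too, with Tagln and Acta2 at 0.83, Myh11 at 0.76 and Cspg4 at 0.57. With group means removed, Inmt kept 0.85, Tcf21 0.46 and Mgp 0.38, and the mural genes were at -0.05 to 0.28. This likeness did not keep to fibroblast lists, since with group means removed Inmt had 0.81 with the leukocyte markers and Tcf21 had 0.74 with the alveolar macrophage markers.

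The genes whose pattern over the 12 libraries was most like the mean of the 6 fibroblast genes, by Pearson's r of log2 CPM among 12420 whose log2 CPM averaged 1 or more, were Serpinf1 (0.97), Cygb (0.95), Rpl37 (0.95), Gsn (0.95) and Htra1 (0.94). Among those most like the mean of the 4 mural genes were Rgcc (0.94), Emb (0.94), Bnip3l-ps (0.94) and Sparcl1 (0.93). Rpl37 encodes a ribosomal protein, so likeness of pattern did not keep to connective tissue genes. With group means removed, the coefficients were 0.76 to 0.92 for the first 5 genes and 0.41 to 0.72 for the 4 named beside the mural mean.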

How the data were processed

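RNA of sorted lung LECs was read in 12 libraries, made with the SMART-Seq v4 kit, which does not mark the strand. The deposited files hold unnormalised counts of reads for each Ensembl identifier. To make them, the authors checked quality with FastQC 0.11.9, trimmed with Skewer, filtered with Minion and mapped to GRCm38 with STAR, whose GeneCounts mode gave the counts. The annotation release and the strand column used are not given in the sources used here. Reads of opposite-strand genes are therefore not separable, and low values of Tagln are uncertain for that reason.

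Identifiers were named with GENCODE M21, in which 147 of 52636 were not found. Groups, sex and number came from the labels, and exposure lengths and pooling from the study's methods. In R 4.3.3, edgeR 4.0.16 filtered by expression, scaled by TMM and fitted all 12 libraries by group with the quasi-likelihood F-test. Adjusted p-values of edgeR and DESeq2 1.42.0 follow Benjamini and Hochberg over all genes tested, with a limit of 0.05. A prior count of 2 was added for log2 CPM, and FPKM used the union of exons. The values of a single gene were compared by exact permutation (two-sided), for which 0.0357 is the smallest p with 5 against 3 chronic libraries and 0.2 the smallest between the room air groups. Tables and figures were made in Python 3.11.15 with pandas 2.3.3, SciPy 1.17.1 and matplotlib 3.10.9. The fit was tested on simulated data.

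The genes, the lists and the rule for naming genes were chosen with earlier results of these data known. The rule named the 10 genes, from each of 3 lists the 3 genes with the smallest p in either smoke comparison, Pdgfra, Pdgfrb, Col1a1 and Rgs5, defining markers of other cells, sequence relatives, and the 5 genes most like the mean of each class. One gene that this rule named is not reported here. Alternatives were DESeq2, library size, no filter, a fit of the compared groups alone, a term for sex, a replicate block, robust estimation, scaling to Prox1, Flt4 and Pdpn, leaving out each library, and splitting chronic CS into F, M1 and M2 and the deeper M3 and M4. Nothing states that the chronic libraries came from separate experiments, so p-values measure the spread between these libraries.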

Additional observations from a re-analysis of the deposited data

Results flagged for a closer look

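Eln in chronic CS F stood apart from the other chronic smoke libraries, at 277.2 CPM against 149.6 to 176.8 CPM in M1, M2, M3 and M4. On the log2 CPM scale, the gap to the nearest library was 0.729 of the range of the 5 libraries. Chronic CS F was also the shallowest library. The 10 genes were each examined in this way in chronic CS, the only group large enough, and chance alone flags about 1 in 20 such groups. Without chronic CS F the log2 fold change of Eln after chronic smoke was -0.20.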

How the results depend on the processing

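Of the 10 genes, 3 were called after acute smoke, and this count was 5 with DESeq2, 5 with no filter on low counts (where 880 genes in all were called), 0 with only the groups compared, 1 with the replicate block, 7 when scaled to Prox1, Flt4 and Pdpn (where 35% of all genes were called higher), and 0 to 3 when a library was left out. After chronic smoke the count of 0 became 5 with DESeq2, 3 with no filter (of 10 genes called in all) and 0 to 1 when a library was left out. Between the room air groups 0 became 3 with DESeq2 (of 253 genes called in all) and 1 with only the groups compared (of 57 genes called in all). For the acute minus the chronic effect 0 became 1 with DESeq2 and 2 with the lymphatic scaling. Without acute CS F, the log2 size of this effect for Dcn was 3.20. The lymphatic scaling brought the median of all genes from 0.04 to 1.02 in the acute and from 0.01 to 0.22 in the chronic comparison. Under it the medians were 1.59 (fibroblast, acute), 0.995 (fibroblast, chronic) and 3.37 (mural, acute). With chronic CS M3 and M4 only, the fibroblast median was 0.48. Without 1 library the mural median was 1.96 to 2.67 after acute and 1.74 to 2.87 after chronic smoke.

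The calls of Dcn and Acta2 after acute smoke were lost with only the groups compared (adjusted p = 0.238 and 0.134 in edgeR) and with the replicate block (0.267 and 0.0535), that of Dcn also with sex as a covariate (0.0720), and that of Myh11 with only the groups compared (0.0765). Signs turned for 4 genes. For Dcn after chronic smoke the log2 fold change was 0.005 with library size, 0.14 with the lymphatic scaling and -0.214 to 0.045 when a library was left out. For Npnt after chronic smoke it was 0.073 with the replicate block, 0.035 with the lymphatic scaling and 0.081 with chronic CS F, M1 and M2 only. For Eln it was -0.005 to 0.16 after acute smoke when a library was left out. After chronic smoke it was 0.02 with DESeq2, 0.07 with library size, 0.10 with the replicate block, 0.18 with the lymphatic scaling, 0.15 with chronic CS F, M1 and M2 only and -0.199 to 0.056 when a library was left out. For Cspg4 after chronic smoke it was -0.27 with M3 and M4 only. The causes were not tested.

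With group means removed, libraries with the same sex and number correlated at 0.07 in the acute and -0.04 to 0.03 in the chronic groups. With 2 libraries in a group the acute deviations mirror each other, so these values cannot settle whether the numbers pair the samples. The replicate block is given as an alternative. The further fibroblast genes called higher after acute smoke, 6, became 13 with DESeq2, 2 with only the groups compared, 0 with the replicate block and 21 with the lymphatic scaling. Over all genes, 590 called higher became 1443, 142, 68 and 7495 in the same order. The further mural genes called higher, 8, became 3 with only the groups compared, 3 with the replicate block and 18 with the lymphatic scaling. These counts were chosen after seeing the data. The acute groups held 2 libraries each, and Tagln was under 1 CPM in 7 of 12 libraries.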
